A study of Mus musculus with 2 samples.

Results

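Regulatory T cells of a mouse pancreatic tumour were selected as single cells that carried a Foxp3 transcript together with CD3 transcripts and no CD8 transcript. By this rule 62 of the 24160 cells kept from both libraries were members, 29 of 11713 in KPC-shV and 33 of 12447 in KPC-shZEB1. Members were selected on measured values of Foxp3 (at least 1 unique molecular identifier, UMI, which stands for 1 captured transcript), the CD3 genes Cd3e, Cd3d and Cd3g (at least 1 UMI in sum), Cd8a and Cd8b1 (0 UMIs), Cd79a (at most 1 UMI), the C1q genes (C1qa, C1qb and C1qc, below 0.05% of the UMIs of a cell) and S100a8 with S100a9 (below 0.4%), so these genes are given as a description. The cells came from tumours that grew after KPC cells, a pancreatic cancer line of the mouse, had been placed into the pancreas of mice. KPC-shV cells carried a control hairpin and KPC-shZEB1 cells a hairpin against Zeb1, a transcription factor of epithelial to mesenchymal transition. The study states that the tumours of both groups used for single-cell sequencing were from gemcitabine-treated mice, whereas the sample labels name the injected cells and no drug. Each library came from 1 tumour of 1 mouse, so the libraries cannot be told apart from the hairpin, no comparison has a replicate, and no test was made.

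Regulatory T cells are Cd4-lineage T cells whose identity is set by the transcription factor Foxp3 and which restrain other immune cells. They carry the high-affinity interleukin 2 receptor chain Il2ra (CD25) and the inhibitory receptor Ctla4, and they can release transforming growth factor beta from its latent form through Lrrc32 (GARP) and the integrin of Itgav and Itgb8. A tissue-resident kind responds to the alarmin interleukin 33 through Il1rl1 (ST2), often bears Klrg1, depends on Gata3 and Batf, and makes the growth factor Areg (amphiregulin).

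The libraries held 12594 and 13271 barcodes, and their kept cells 104585208 UMIs in KPC-shV and 123856076 in KPC-shZEB1. The libraries shared 46 barcode sequences, and 0 of these were members. The hairpin could not be read from the deposited counts of the tumour cell gate. This gate took cells with transcripts of Epcam and of Krt8 or Krt18 and without Ptprc, 433 in KPC-shV and 284 in KPC-shZEB1. Zeb1 stood there at 173 CPM (95% interval 164 to 183) in KPC-shV and at 191 (178 to 204) in the library labelled KPC-shZEB1, which was not lower. Tumour cells without an Epcam transcript lie outside this gate. Within the regulatory T cells, which do not carry the hairpin, Zeb1 was 1467 and 1122 CPM. Here and below, a CPM value is the UMIs of a gene summed over the cells of a gate per 1000000 UMIs of that gate, and the range behind a value is the 95% exact interval for counting error alone (Poisson for a level, binomial for a ratio or a share).

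Foxp3 lies on the X chromosome (chrX:7573644-7595245, plus strand, GRCm38). The RefSeq promoter sequences of Foxp3 and of Il2ra (chr2:11642807-11693193, plus strand), its surface receptor partner in marking these cells, are shown because both genes define the population. Each run is the 250 bases before a RefSeq start site, written on the plus strand of GRCm38.p6, with capitals for a match to STAT letters (TTCNNNGAA) or GATA letters (AGATAA).
Foxp3, first start site, chrX:7579426-7579675: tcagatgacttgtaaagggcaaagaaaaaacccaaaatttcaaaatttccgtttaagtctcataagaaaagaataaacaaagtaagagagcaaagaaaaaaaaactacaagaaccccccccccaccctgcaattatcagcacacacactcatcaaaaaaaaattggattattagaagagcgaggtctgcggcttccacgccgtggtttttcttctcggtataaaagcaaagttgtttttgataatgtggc
Foxp3, second start site, chrX:7580233-7580482: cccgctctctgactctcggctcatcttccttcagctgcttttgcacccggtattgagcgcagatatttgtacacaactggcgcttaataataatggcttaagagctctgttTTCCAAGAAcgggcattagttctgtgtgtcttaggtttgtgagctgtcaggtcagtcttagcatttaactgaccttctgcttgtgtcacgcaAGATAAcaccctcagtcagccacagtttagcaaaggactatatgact
Il2ra, chr2:11642542-11642791: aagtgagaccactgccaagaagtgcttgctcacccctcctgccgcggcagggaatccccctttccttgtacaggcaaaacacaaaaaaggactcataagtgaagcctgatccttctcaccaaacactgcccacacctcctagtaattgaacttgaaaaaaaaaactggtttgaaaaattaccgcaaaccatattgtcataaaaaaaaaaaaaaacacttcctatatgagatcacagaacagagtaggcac
The window of the second Foxp3 start site held the STAT letters 139 bases and the GATA letters 47 bases before the start. The other windows held none of the 5 motifs searched.

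Foxp3 itself was sparse. In KPC-shV 13 members had 1 Foxp3 UMI, 13 had 2 and 3 had 3. In KPC-shZEB1 11 had 1 UMI, 12 had 2, 9 had between 3 and 5, and 1 had 8. Members had a median of 4947 UMIs in KPC-shV (2189 to 22451) and 4909 in KPC-shZEB1 (1219 to 25192), and the deepest member held 14.3% and 9.51% of all member UMIs. With so few Foxp3 UMIs per cell, a T cell with none can still express the gene at this depth. The share of cells with a Foxp3 UMI was 0.334% and 0.260% among B cells (median 4153 and 3633.5 UMIs) and 0.0244% and 0.176% among granulocytes (3302 and 3007.5 UMIs), cell types that should lack it. In all, 9 members of KPC-shV and 12 of KPC-shZEB1 also carried a Cd4 UMI, although Cd4 was required of the Foxp3-negative T cells that served for comparison (89 and 116 cells, median 5783 and 5176.5 UMIs). None of the members, 0 in each library, had a Scrublet doublet score above 0.2, whereas 7 and 0 Foxp3-negative cells had one.

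The label was set beside genes that the rule did not use. Il2ra was detected in 27 of 29 and 28 of 33 members, Ctla4 in 28 and 29, and Ikzf2 (Helios) in 26 and 30. Foxp3-negative Cd4-positive T cells also held them, Il2ra in 34.8% and 28.4%, Ctla4 in 71.9% and 67.2% and Ikzf2 in 61.8% and 59.5% of cells, so detection alone set Il2ra apart more than Ctla4 or Ikzf2. Of the 5 further markers Il1rl1, Klrg1, Itgb8, Lrrc32 and Izumo1r, at least 1 was detected in 27 of 29 and 29 of 33 members. These markers were chosen with results of these cells known, so they describe the members and do not check the label. Taken singly, they were found in 1.72% (Klrg1, KPC-shZEB1) to 25.8% (Itgb8, KPC-shV) of Foxp3-negative cells. Cells at the threshold of 1 Foxp3 UMI held Il2ra in 92.3% of cases in KPC-shV and 72.7% in KPC-shZEB1, against 93.8% and 90.9% of members with at least 2 Foxp3 UMIs. The values near the Foxp3 threshold thus lay close together in KPC-shV and further apart in KPC-shZEB1.

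The C1q limit acted unequally on the libraries. C1q transcripts belong to macrophages, yet B cells, which do not make them, had a median of 0.0225% C1q UMIs in KPC-shV and 0.0630% in KPC-shZEB1, the latter above the limit of 0.05%. Of the Foxp3-positive, CD3-positive and CD8-negative cells (38 in KPC-shV and 101 in KPC-shZEB1), the C1q limit removed 2 and 66. The 52 cells of KPC-shZEB1 just outside it, with 0.05% to 0.2% C1q UMIs, held Il2ra in 67.3%, Ctla4 in 76.9%, Ikzf2 in 84.6% and Il1rl1 in 46.2% of cases. With the limit at 0.2%, chosen after seeing the data, the members numbered 30 and 85 (the wider gate). At that limit 66 of 7280 genes compared were at least 2-fold higher in members of both libraries, and the calls of named genes and lists that were lost there are given beside the results.

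Whether the tumour of KPC-shZEB1 held more regulatory T cells depended on that limit and on the denominator. Members made up 0.248% (0.166% to 0.355%) of kept cells in KPC-shV and 0.265% (0.183% to 0.372%) in KPC-shZEB1, a ratio of 1.07 (0.630 to 1.83). With C1q below 0.2% the ratio was 2.67 (1.74 to 4.19), and with no limit on C1q, S100a8/S100a9 and Cd79a it was 2.50 (1.71 to 3.73). Against the Cd4 lineage, members plus Foxp3-negative Cd4-positive T cells, the share was 24.6% (17.1% to 33.4%) and 22.1% (15.8% to 29.7%), with a ratio of 0.901 (0.531 to 1.54) that moved little at the wider limit (0.947, 0.618 to 1.49) and without limits (0.876, 0.598 to 1.31). Per CD8 T cell the ratio was 0.730 (0.430 to 1.25), 0.793 (0.518 to 1.25) and 0.684 (0.467 to 1.02) under the same settings. The Cd4-lineage and CD8 ratios thus lay below 1 in all settings with intervals that included 1, and only the ratio per kept cell had intervals above 1, when the limit was widened or removed. The number of cells of every other type enters the ratio per kept cell, and its part in that ratio was not tested.

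**Figure D1:**
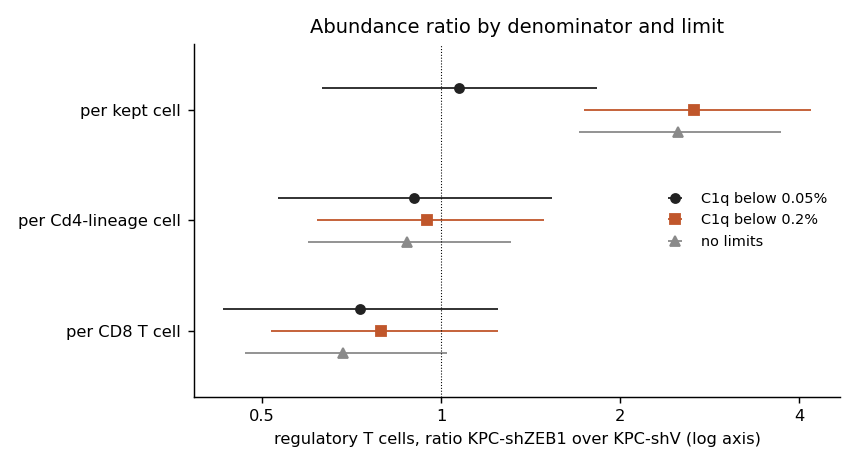
Ratio of regulatory T cells in KPC-shZEB1 over KPC-shV (log axis) per kept cell, per Cd4-lineage cell and per CD8 T cell, with 1 tumour a library. Points are ratios and bars 95% exact binomial intervals for counting error, for C1q below 0.05% (circles), below 0.2% (squares) and no limits (triangles). The ratio per kept cell moves from 1.07 to 2.67 and 2.50, whereas the other ratios stay below 1.

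Genes of regulatory identity were higher in members than in Foxp3-negative Cd4-positive T cells of the same tumour. In KPC-shV Il2ra stood at 931 (786 to 1095) CPM in members against 107 (86.9 to 132) in Foxp3-negative cells, and in KPC-shZEB1 at 827 (721 to 944) against 175 (153 to 201). The ratios were 8.66 (6.64 to 11.3) and 4.72 (3.89 to 5.72). Ikzf2, a zinc finger factor that stabilises regulatory T cells (chr1:69531214-69687245, minus strand), had 3909.5 (3606 to 4232) against 799 (741 to 861) CPM in KPC-shV and 3327 (3111 to 3554) against 595 (552 to 639.8) in KPC-shZEB1. Its ratios were 4.89 (4.38 to 5.46) and 5.59 (5.06 to 6.18). For both genes the intervals of members and Foxp3-negative cells did not overlap in either library. Ctla4, which strips costimulatory ligands from antigen-presenting cells, was 2.41 (1.99 to 2.90) and 2.50 (2.12 to 2.93) times higher, and Ikzf4 (Eos), a Foxp3 partner, 8.11 (5.10 to 13.0) and 6.47 (3.72 to 11.4) times.

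Among 7006 genes compared in both libraries, 146 were at least 2-fold higher in members in both, 2.08% of those compared, on the scale of log2(CPM + 10). As much lower were 355, 5.07%. Both shares stand beside every list count over both libraries given below for this comparison. Of the 16 genes listed for regulatory identity 14 were compared, and 8 of them were at least 2-fold higher in both libraries: Il2ra, Ctla4, Ikzf2, Ikzf4, Lrrc32, Izumo1r, Tnfrsf4 and Tnfrsf18. None, 0 of 14, was as much lower, and the list medians were 1.43 and 1.19 on the log2 scale (KPC-shV and KPC-shZEB1), beside -0.09 and 0.03 over all genes compared. Il2rb, Nrp1, Capg, Socs2, Tigit and Cd5 did not reach 2-fold in both libraries. At the wider C1q limit the list had 7 of 15 genes at least 2-fold higher in both libraries, and Ctla4 and Tnfrsf18 were no longer among them, at log2 0.96 and 0.96 in KPC-shZEB1. The lists and genes were chosen with results of these cells known, so the counts describe the members and are no independent support for their identity.

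**Figure D2:**
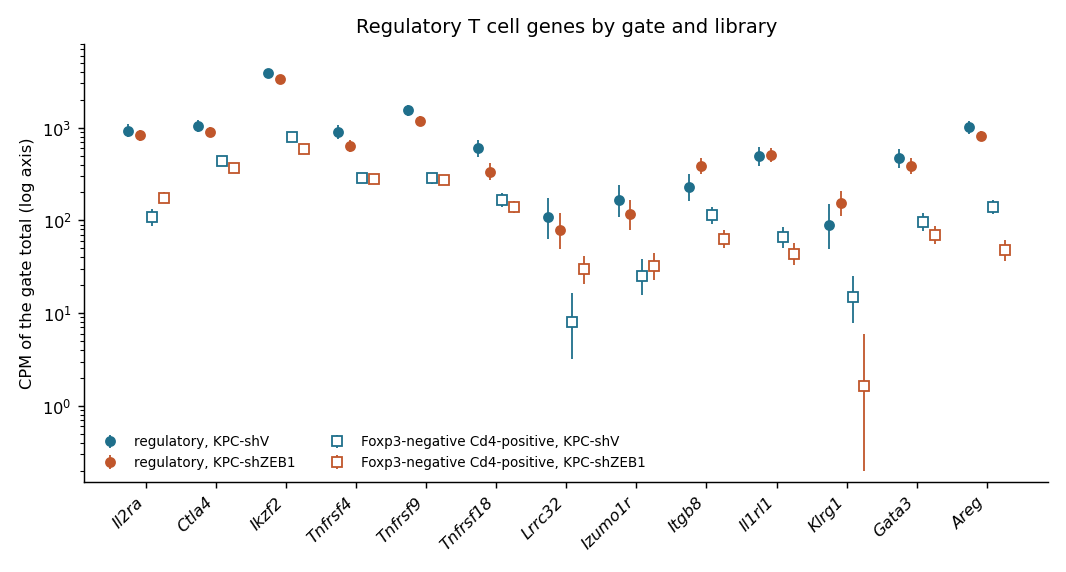
CPM (log axis) of 13 genes in regulatory T cells (filled circles) and Foxp3-negative Cd4-positive T cells (open squares) of KPC-shV and KPC-shZEB1, with bars for 95% exact Poisson intervals. Each gene lies higher in regulatory T cells in both libraries, from 2.03 times for Itgb8 in KPC-shV to 93.6 times for Klrg1 in KPC-shZEB1, where Foxp3-negative cells held 2 Klrg1 UMIs.

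Markers of the tissue-resident kind were higher in members as well. Il1rl1, the interleukin 33 receptor (chr1:40429570-40465415, plus strand), had 491 (388 to 614) CPM in KPC-shV members and 509.8 (427 to 603) in KPC-shZEB1 members, against 66.3 (50.4 to 85.7) and 43.8 (32.8 to 57.3) in Foxp3-negative cells. The ratios were 7.41 (5.20 to 10.6) and 11.6 (8.41 to 16.3), and 16 of 29 and 19 of 33 members held a UMI. The levels of members overlapped between the libraries and lay above those of Foxp3-negative cells in both. Klrg1, an inhibitory receptor for cadherins (chr6:122270596-122282882, minus strand), had 89.3 (48.8 to 149.8) and 155 (111 to 210.1) CPM in 6 and 11 members, against 14.9 (7.91 to 25.4) and 1.65 (0.200 to 5.98) in 5 and 2 Foxp3-negative cells. One member of KPC-shZEB1 held 39.0% of the Klrg1 UMIs and 1 held 29.6% of those of Il1rl1, and without these cells the log2 ratios were 3.29 in place of 3.82 and 2.87 in place of 3.27.

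Areg, the amphiregulin of tissue repair (chr5:91139599-91148432, plus strand), led the genes that were higher in both libraries once genes with over 25% of their UMIs in 1 cell were set aside, ranked by the smaller of the 2 log2 ratios. It had 1008 (857 to 1178) and 816 (711 to 932) CPM in 18 and 23 members, against 141 (117 to 168) and 48.0 (36.4 to 62.0) in Foxp3-negative cells. The ratios were 7.16 (5.62 to 9.14) and 17.0 (12.7 to 23.1). Gata3, the lineage factor shared with type 2 helper and innate lymphoid cells (chr2:9857078-9890034, minus strand), had 466 (365 to 585) and 389 (317 to 472) CPM against 97.2 (77.6 to 120.2) and 70.3 (56.2 to 86.9). Its ratios were 4.79 (3.46 to 6.63) and 5.53 (4.11 to 7.46). With C1q below 0.2% Areg stood at 557 against 104 CPM in KPC-shZEB1, and its log2 ratios were 2.75 and 2.31. Members of both libraries thus lay above Foxp3-negative cells for Areg and Gata3 with intervals that did not overlap.

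Of the 16 genes listed for this tissue effector state, all compared, 6 were at least 2-fold higher in both libraries (Il1rl1, Klrg1, Gata3, Areg, Tnfrsf9 and Il10) and 0 lower, with medians of 0.85 and 1.12. Batf reached log2 0.08 in KPC-shV and 1.18 in KPC-shZEB1. Penk, a proenkephalin gene, had ratios of 0.578 (0.370 to 0.867) and 0.485 (0.354 to 0.652), while Irf4 and Pparg lay within 0.2 of 0 in both libraries. At the wider C1q limit Il1rl1 was log2 2.70 and 2.64 higher, Klrg1 2.16 and 3.28, and Itgb8 1.25 and 2.08. Markers of group 2 innate lymphoid cells, which share Il1rl1 and Gata3, were otherwise scarce: Il5, Il13 and Rxrg were at 0 UMIs in members of both libraries, and Calca, Hs3st1 and Il17rb had between 1 and 5, with floors of 3 UMIs at 19.1 and 11.3 CPM.

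The promoters of Il1rl1 and Areg are printed because these genes carried the tissue pattern. They follow the same convention as those above, with capitals for a match to GATA letters (AGATAA), forkhead letters (TGTTTAC) or their reverse complements.
Il1rl1, first start site, chr1:40429320-40429569: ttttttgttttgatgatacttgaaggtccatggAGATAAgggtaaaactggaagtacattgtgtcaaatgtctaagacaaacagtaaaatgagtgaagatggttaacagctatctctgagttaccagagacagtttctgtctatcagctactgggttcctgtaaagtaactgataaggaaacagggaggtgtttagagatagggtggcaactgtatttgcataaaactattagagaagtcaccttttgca
Il1rl1, second start site, chr1:40439379-40439628: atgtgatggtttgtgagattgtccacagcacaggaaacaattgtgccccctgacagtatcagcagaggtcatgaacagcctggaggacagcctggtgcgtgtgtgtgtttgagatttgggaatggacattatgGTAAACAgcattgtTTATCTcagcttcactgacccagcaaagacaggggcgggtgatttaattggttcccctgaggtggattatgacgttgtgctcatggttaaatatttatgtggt
Areg, chr5:91139349-91139598: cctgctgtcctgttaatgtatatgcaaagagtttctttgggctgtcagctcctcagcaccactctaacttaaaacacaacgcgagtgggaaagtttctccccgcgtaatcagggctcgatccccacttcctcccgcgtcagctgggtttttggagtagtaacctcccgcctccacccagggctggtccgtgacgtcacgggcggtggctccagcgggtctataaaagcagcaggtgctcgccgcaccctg
The first Il1rl1 window held GATA letters 217 bases before the start. The second held forkhead letters on the minus strand 117 bases before the start and GATA letters on the minus strand 103 bases before it. The Areg window held none. Such matches are descriptions of the letters, and GATA letters were in 9.99% of 32851 RefSeq windows of the same length and forkhead letters in 3.17%.

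Over the 146 genes at least 2-fold higher in members, 106 were matched to RefSeq promoters, in 140 windows. On both strands, forkhead letters (TGTTTAC) were in 3.57% of these windows, AP-1 letters (TGANTCA) in 8.57%, STAT letters (TTCNNNGAA) in 7.14%, RUNX letters (TGTGGTT) in 7.14% and GATA letters (AGATAA) in 5%. Over the windows of all genes compared, the shares were 2.23%, 4.60%, 5.57%, 3.30% and 5.60% in the same order. The windows of the 355 genes at least 2-fold lower in members (271 matched, 351 windows) held them in 1.71%, 5.70%, 7.41%, 3.99% and 5.41%. Nothing is read from these shares about binding.

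Suppressive and growth factor genes were higher for some members of the list only. Of 15 suppressive genes 13 were compared, and Ctla4, Areg, Lrrc32, Nt5e, Il10 and Gzmb, 6 genes, were at least 2-fold higher in both libraries (medians 0.96 and 1.07). Nt5e (CD73), which makes adenosine, was 2.40 (1.85 to 3.09) and 3.21 (2.43 to 4.22) times higher, whereas Entpd1 (CD39), the enzyme before it, had ratios of 1.39 (0.895 to 2.11) and 1.07 (0.714 to 1.56). The interleukin 10 gene Il10 had 121 (73.0 to 189) and 49.1 (26.1 to 84.0) CPM, from 4 and 3 cells, and 1 cell held 84.6% of the Il10 UMIs in KPC-shZEB1. Gzmb (granzyme B) came from 6 and 5 members, with 55.9% and 57.9% of its UMIs in 1 cell. Without the top cell the KPC-shZEB1 log2 ratio was -0.66 for Il10 and 0.22 for Gzmb, so neither was then 2-fold higher in both libraries. With C1q below 0.2%, 5 of 14 suppressive genes were 2-fold higher in both, and Ctla4 and Nt5e (log2 0.94 in KPC-shZEB1) were not.

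The machinery that frees latent transforming growth factor beta was carried by members. Lrrc32 (GARP, chr7:98489283-98502181, plus strand), which tethers the latent factor, had 108 (63.2 to 174) and 79.3 (49.1 to 121) CPM in members against 8.00 (3.22 to 16.5) and 29.8 (20.9 to 41.2). Itgb8 (chr12:119158022-119238802, minus strand), the integrin chain that activates it, had 229.6 (161 to 318) and 385 (314 to 468) CPM against 113 (92.0 to 138) and 63.7 (50.3 to 79.6). Its partner Itgav had 3418 (3135 to 3720.5) and 1771 (1614 to 1939) CPM against 882 (820.4 to 946) and 823 (773 to 876). For Lrrc32 the higher ratio was in KPC-shV (13.5 (5.34 to 38.6) against 2.66 (1.48 to 4.69)), for Itgb8 in KPC-shZEB1 (2.03 (1.34 to 3.00) against 6.05 (4.46 to 8.24)), and for Itgav in KPC-shV (3.88 (3.47 to 4.34) against 2.15 (1.92 to 2.40)). Of the 13 genes of this pathway 3 were at least 2-fold higher in both libraries (Lrrc32, Itgav and the signal transducer Smad3) and 0 lower. In the wider gate Itgb8 took the place of Itgav, which was at log2 1.95 and 0.71. Tgfb1 itself had ratios of 1.42 (1.01 to 1.95) and 1.23 (0.905 to 1.65).

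Costimulatory receptors of the tumour necrosis factor family were higher in members. Tnfrsf9 (4-1BB) was 5.42 (4.52 to 6.50) and 4.34 (3.71 to 5.09) times higher, Tnfrsf4 (OX40) 3.14 (2.54 to 3.88) and 2.29 (1.89 to 2.76), and Tnfrsf18 (GITR) 3.62 (2.76 to 4.72) and 2.40 (1.84 to 3.13). With Cd27 they made 4 of 9 costimulatory genes compared, and 1 gene, Cd40lg, was lower. In the wider gate 2 of 9 were higher in both libraries, with Tnfrsf18 at log2 0.96 and Cd27 at 0.68 in KPC-shZEB1. Icos had ratios of 2.21 (1.86 to 2.62) and 1.66 (1.41 to 1.95), so it passed 2-fold in KPC-shV alone. Izumo1r (folate receptor 4, chr9:14885814-14903949, minus strand), a receptor of regulatory T cells, had 166 (108 to 243) and 117 (79.5 to 166) CPM against 25.2 (15.8 to 38.1) and 32.3 (22.9 to 44.1). Among 8 checkpoint genes compared, Ctla4 was the 1 gene at least 2-fold higher in both libraries, and Pdcd1 (PD-1) had ratios of 1.02 (0.602 to 1.66) and 1.28 (0.805 to 1.99). At the wider limit 0 of 8 checkpoint genes were.

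Of 19 homing receptors 13 were compared. Ccr2, Ccr4, Ccr6 and Cxcr4, 4 receptors that draw cells to inflamed tissue, skin or marrow, were at least 2-fold higher in members of both libraries, and Cxcr6 was the 1 receptor as much lower. Over all genes compared the shares were 2.08% higher and 5.07% lower. Ccr2 had ratios of 8.72 (5.48 to 14.0) and 4.35 (2.77 to 6.84) and Ccr4 of 6.86 (3.10 to 15.5) and 7.02 (3.33 to 15.4). Ccr6 and Cxcr4 were not 2-fold higher in KPC-shZEB1 at the wider C1q limit (log2 0.85 and 0.57). Without the cell with most UMIs of each gene, Ccr6 was at log2 0.85 in KPC-shV and 0.98 in KPC-shZEB1. Cxcr4 was then at 0.93 in KPC-shZEB1 and Cxcr6 at -0.96 in KPC-shV, while Ccr2 and Ccr4 stayed past 2-fold in both libraries. Ccr8, a receptor often used to mark tumour regulatory T cells, had 57.4 (26.2 to 109) and 79.3 (49.1 to 121) CPM against 37.7 (26.0 to 53.0) and 29.8 (20.9 to 41.2). The Ccr8 intervals of members and Foxp3-negative cells overlapped in KPC-shV and did not in KPC-shZEB1.

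Few genes of the signalling lists passed 2-fold in both libraries. Il2ra was the 1 of 10 interleukin 2 pathway genes at least 2-fold higher in both libraries, and Rel and Traf1 were the 2 of 10 in the NF-kB list, at log2 0.53 and 0.77 in KPC-shZEB1 at the wider C1q limit. Of 15 T cell receptor response genes, 12 cell cycle genes and 10 genes of MHC class I presentation, 0 were at least 2-fold higher or lower in both libraries. The medians of the T cell receptor list were -0.57 and 0.05, those of the cell cycle list 0.30 and 0.76 and those of the MHC class I list 0.47 and 0.36. In KPC-shV alone 6 of 15 T cell receptor response genes were at least 2-fold lower and 2 higher, against 0 and 0 in KPC-shZEB1. For counts in 1 library no share over all genes is given, so they are a description and nothing is read from them. The cell cycle medians rested on single cells: without the cell with most UMIs of each gene, in whichever gate it was higher, they were -1.15 and 0.32, and 9 of the 9 genes above 0 in KPC-shV and 4 of 12 in KPC-shZEB1 turned below 0. In the metabolism list Slc16a1, a lactate transporter, was the 1 of 12 genes lower, by log2 -1.29 and -1.43, and at the wider C1q limit it was -0.29 in KPC-shZEB1. In KPC-shV alone 5 of the 12 were at least 2-fold lower, against 1 in KPC-shZEB1, again without a share over all genes beside them. Outside the lists, the highest ratios in both libraries belonged to Hopx, a homeodomain cofactor (6.77 (4.69 to 9.83) and 8.88 (6.64 to 12.0)), Dgat2, an enzyme of triglyceride synthesis (11.2 (4.76 to 28.2) and 9.59 (4.32 to 22.8)), the integrin chain Itgb7 (5.14 (3.38 to 7.79) and 4.09 (2.76 to 6.06)) and the syntrophin Sntb1 (4.14 (3.29 to 5.20) and 3.65 (3.00 to 4.44)).

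Of the effector genes of helper T cells, Ifng, Csf2, Il21 and Cd40lg had at most 1 UMI in the members of a library. Ifng (interferon gamma) had 0 UMIs in members of both libraries, against 214 (184 to 247) and 281 (252 to 313) CPM in Foxp3-negative cells, so at a floor of 3 UMIs per library it was at least 11.2-fold lower in KPC-shV and at least 24.8-fold lower in KPC-shZEB1. Csf2 (GM-CSF) had 1 UMI in each library, with ratios of 0.0239 (0.000604 to 0.135) and 0.0448 (0.00112 to 0.255). Il21 had 0 UMIs in members, at least 1.55-fold and 4.89-fold lower, and Cd40lg (CD40 ligand) had 0 UMIs in KPC-shV (at least 4.24-fold lower) and 1 UMI in KPC-shZEB1 (ratio 0.0564 (0.00141 to 0.323)). Of 16 helper genes 8 were compared, and these 4 were at least 2-fold lower in both libraries on the scale of log2(CPM + 10), although the floor bounds Il21 in KPC-shV at 1.55-fold only, read against 355 of 7006 genes, 5.07%. The list medians were -1.54 and -1.52, or -0.93 and -1.43 with the genes at 0 placed at their floor. Ltb (lymphotoxin beta) went the other way, 4.09 (3.20 to 5.22) and 2.63 (2.05 to 3.36) times higher in members, but it was at log2 0.87 in KPC-shZEB1 at the wider C1q limit. Tnf, a further cytokine of this list, had ratios of 0.425 (0.179 to 0.869) and 1.85 (1.15 to 2.91).

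Genes of resting lymphoid T cells were mixed. Tcf7, a factor of naive and memory T cells, had 25.5 (6.95 to 65.3) and 26.4 (10.6 to 54.5) CPM in members against 130.3 (108 to 157) and 112 (93.6 to 132), and the intervals did not overlap in either library. Il7r, the interleukin 7 receptor, was 2.67 (2.11 to 3.36) and 2.32 (1.91 to 2.80) times higher in members. Bach2, which holds T cells in a quiescent state, had ratios of 0.681 (0.506 to 0.900) and 0.640 (0.512 to 0.793). Of the 11 genes compared in this list, Il7r was the 1 at least 2-fold higher in both libraries, and Tcf7 and Igfbp4 were the 2 lower (medians -0.54 and -0.63). In the wider gate Il7r was at log2 0.50 in KPC-shZEB1, so 0 of 11 were then higher.

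The Foxp3-negative gate held more transcripts of other cell types, which moved with the lower genes. The 8 fibroblast markers summed to 739.8 and 918 CPM in members and to 2217 and 11979 in Foxp3-negative cells, and 6 of 8 were at least 2-fold lower in members of both libraries. The 8 tumour cell markers summed to 925 and 2345 CPM in members against 6603 and 3565, and the 7 natural killer cell markers to 6.38 and 18.9 against 385 and 175. Of the 10 lowest genes outside the lists, Tpm2 and Ccn1 are muscle and matrix genes of stromal cells and Klrd1 is a natural killer receptor. The part of these other cells in the lower genes was not tested. Macrophage markers differed little between members (855 and 1824 CPM) and Foxp3-negative cells (851 and 2012), and were higher in KPC-shZEB1 in both.

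**Figure D3:**
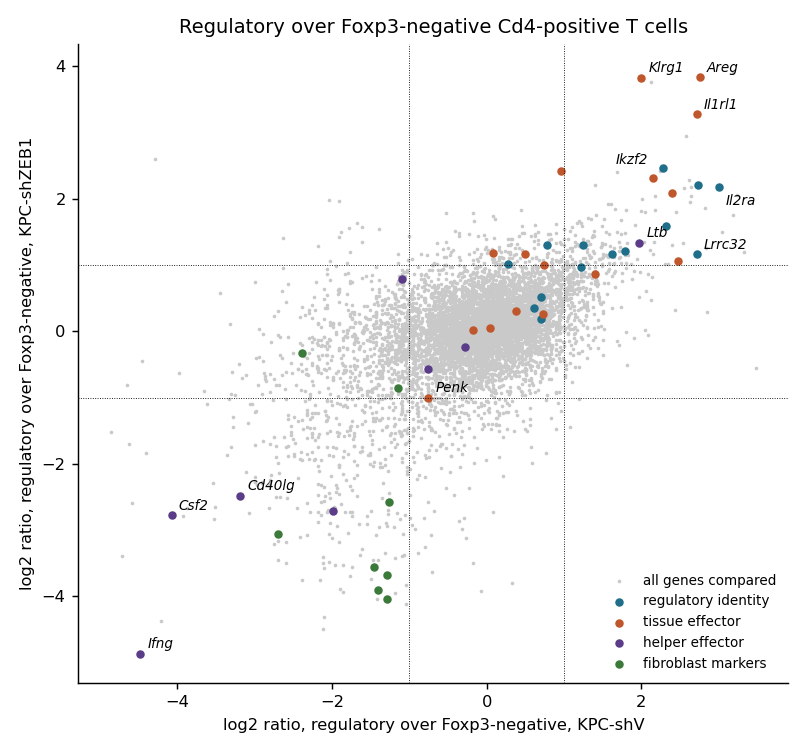
Log2 ratio of CPM + 10, regulatory over Foxp3-negative Cd4-positive T cells, in KPC-shV (horizontal) and KPC-shZEB1 (vertical), for 7006 genes (grey) with the regulatory identity, tissue effector, helper effector and fibroblast lists coloured and dotted lines at 2-fold. The 8 identity and 6 tissue effector genes past 2-fold lie at the upper right, and Ifng, Csf2 and Cd40lg lie at the lower left with the fibroblast markers.

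Members were not alike in the tissue markers. An Il1rl1 or Klrg1 UMI was found in 17 of 29 members of KPC-shV (58.6%, 38.9% to 76.5%) and in 21 of 33 of KPC-shZEB1 (63.6%, 45.1% to 79.6%). After thinning each cell to 2000 UMIs the shares were 14 of 29 (48.3%) and 15 of 32 (46.9%). The libraries thus differed by less than the counting interval at either depth. Foxp3-negative cells held either gene in 14.6% and 11.2% of cells (7.87% and 6.09% after thinning), B cells in 0.669% and 2.00%, and granulocytes in 0.829% and 1.35%. Both genes were found together in 5 and 9 members, and all 5 of the markers Il1rl1, Klrg1, Itgb8, Lrrc32 and Izumo1r in 0 and 2 members.

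Members with an Il1rl1 or Klrg1 UMI were set beside those without. Among genes with at least 10 UMIs in members, 9 of 12 tissue effector genes in KPC-shV and 12 of 13 in KPC-shZEB1 were higher with these UMIs than without them, with median log2 ratios of 0.63 and 0.83. Over all genes with as many UMIs, 49.8% of 3237 and 53.6% of 4966 were higher, with medians of -0.01 and 0.08. Of the identity genes 8 of 15 and 11 of 14 were higher (0.16 and 0.23). The cell cycle genes went opposite ways, with 0 of 8 higher in KPC-shV and 11 of 11 in KPC-shZEB1 (-2.08 and 2.69). In KPC-shV the 20 Mki67 UMIs of members without Il1rl1 or Klrg1 came from 1 cell. In KPC-shZEB1 the Mki67 ratio was 35.3. At the wider C1q limit the cell cycle ratios of that library ranged from 0.923 (Rrm2) to 2.14 (Mki67). At the limit of 0.05% Areg was 3.19 (2.18 to 4.76) and 2.20 (1.47 to 3.43) times higher, Ikzf2 2.19 (1.84 to 2.62) and 1.89 (1.56 to 2.30), and Gata3 1.60 (0.975 to 2.68) and 2.00 (1.13 to 3.81). Ctla4 did not share this pattern, at 0.885 (0.644 to 1.22) and 1.06 (0.780 to 1.46). Resting lymphoid genes went the other way in 7 of 8 and 9 of 10 genes, with median log2 ratios of -0.80 and -1.32. Bach2 had ratios of 0.344 (0.177 to 0.635) and 0.115 (0.0706 to 0.183), Foxp1 of 0.526 (0.319 to 0.853) and 0.129 (0.0897 to 0.184), and Klf2, a factor of recirculating lymphocytes, of 0.327 (0.126 to 0.757) and 0.116 (0.0783 to 0.167). Median depth was 4460 UMIs with and 5348 without the markers in KPC-shV and 6314 and 4132.5 in KPC-shZEB1.

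One member of KPC-shZEB1 weighed on these values. It had 21586 UMIs and neither marker, and it held 55.0% of all Klf2 and 36.1% of all Foxp1 UMIs of that library's members. Despite its depth it had 1 Foxp3 UMI and 0 UMIs of Il2ra, Ctla4, Ikzf2 and Izumo1r, beside 2 of Itgb8 and 1 of Lrrc32. Its identity as a regulatory T cell is thus uncertain, and it is part of every value except where its omission is stated. Without it, the KPC-shZEB1 ratios were 0.308 (0.184 to 0.521) for Klf2, 0.0871 (0.0529 to 0.140) for Bach2 and 0.174 (0.115 to 0.262) for Foxp1, while those of Areg were 1.45 (0.968 to 2.26), of Ikzf2 1.24 (1.03 to 1.51) and of Gata3 1.32 (0.747 to 2.51). The lower resting genes of KPC-shZEB1 were thus present without that cell, and the higher effector genes shrank. KPC-shV also had a deep member with neither marker, of 22451 UMIs. That member was not left out in the same way, and the wider C1q limit added 1 member to KPC-shV. Its weight on the KPC-shV ratios was not tested. In the wider gate of 30 and 85 members, which dilutes single cells, the ratios were 2.94 (2.01 to 4.39) and 2.45 (1.98 to 3.05) for Areg, 2.21 (1.86 to 2.64) and 2.73 (2.48 to 3.02) for Ikzf2, 3.21 (1.57 to 7.24) and 3.25 (2.38 to 4.50) for Itgb8 and 0.302 (0.117 to 0.699) and 0.370 (0.277 to 0.489) for Klf2.

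**Figure D4:**
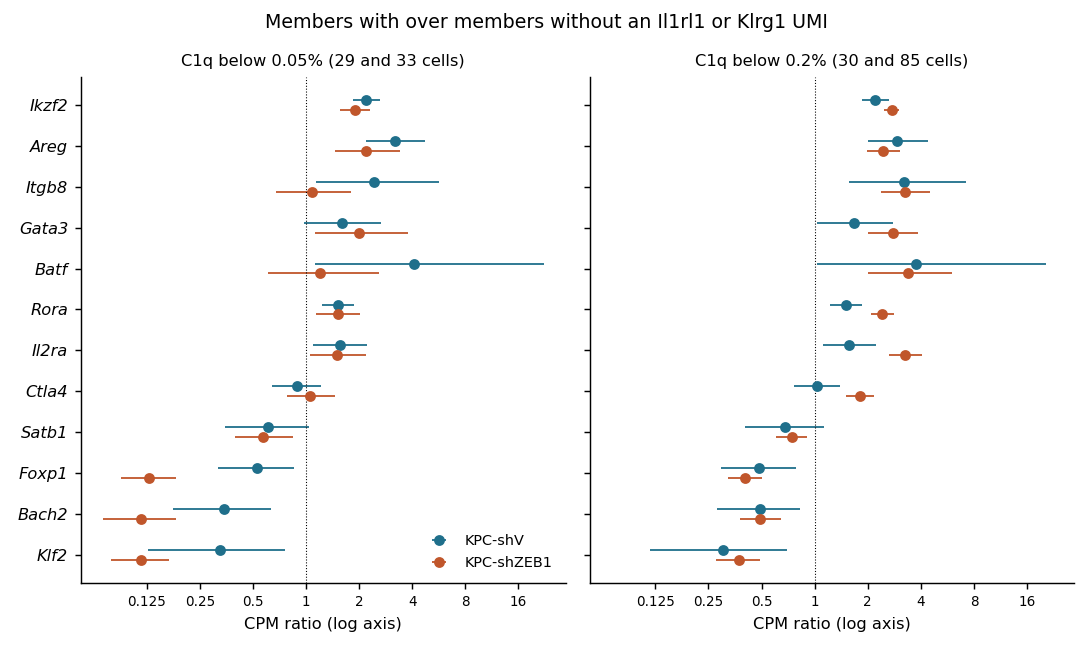
Ratio of CPM (log axis) in members with over members without an Il1rl1 or Klrg1 UMI, for 12 genes in KPC-shV and KPC-shZEB1, at the C1q limits of 0.05% (left) and 0.2% (right), with 95% exact binomial intervals for counting error. Areg and Ikzf2 lie above 1 and Bach2, Foxp1 and Klf2 below 1 in both libraries and at both limits.

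A UMI of the division genes Mki67 or Top2a was found in 8 of 29 members of KPC-shV (27.6%, 12.7% to 47.2%) and in 17 of 33 of KPC-shZEB1 (51.5%, 33.5% to 69.2%). After thinning to 2000 UMIs these were 3 of 29 (10.3%) and 6 of 32 (18.8%), and the intervals of the libraries overlapped at both depths. Foxp3-negative cells had 37.1% and 46.6%, B cells 14.7% and 19.9% and granulocytes 10.1% and 15.2% before thinning. In KPC-shZEB1 15 of 21 members with Il1rl1 or Klrg1 (71.4%, 47.8% to 88.7%) and 2 of 12 without (16.7%, 2.09% to 48.4%) held such a UMI, whereas in KPC-shV it was 2 of 17 with and 6 of 12 without. At the wider C1q limit the KPC-shZEB1 values were 23 of 45 (51.1%) and 15 of 40 (37.5%). The order within members thus differed between the libraries and was less marked in the larger gate. Members with a Mki67 or Top2a UMI were deeper than the others, with medians of 5772.5 against 4446 UMIs in KPC-shV and 7215 against 4322 in KPC-shZEB1, and the part of depth was not tested.

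Some genes differed by at least 2-fold between the regulatory T cells of the libraries. Of 2978 genes compared in members, 172 were at least 2-fold higher in KPC-shZEB1, 5.78%, and 92 were as much lower, 3.09%, with a median log2 ratio of -0.02 over all of them. H2-Ab1, an MHC class II chain of antigen-presenting cells, had 57.4 (26.2 to 109) CPM in KPC-shV members and 276 (216 to 347) in KPC-shZEB1 members, a ratio of 4.80 (2.40 to 10.9). It was also 2.89 (2.29 to 3.69) times higher in Foxp3-negative cells, so the direction was the same in T cells without a Foxp3 UMI. The B cell gate, whose cells make MHC class II, held 299 cells in KPC-shV and 1152 in KPC-shZEB1, and its part in the H2-Ab1 UMIs of members was not tested. Hmgn1, a nucleosome-binding protein gene, had 12.8 (1.54 to 46.1) and 121 (82.7 to 171) CPM, the former below the floor of 3 UMIs (19.1 CPM). The size of its ratio in members is uncertain for that reason. It was 9.47 (2.42 to 81.6) in members and 0.980 (0.786 to 1.22) in Foxp3-negative cells. AY036118, a locus whose reads can come from ribosomal RNA repeats and which is uncertain for that reason, was 5.12 (2.94 to 9.64) and 2.26 (1.79 to 2.87) times higher in the same order. The other 7 of the 10 highest genes were Ube2v2, Srsf2, Gm10076, Tent4b, Cyb5b, Ndufc1 and Gm47283, with log2 ratios from 1.54 to 2.35.

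The genes lower in KPC-shZEB1 members included homing receptors. Ccr7, the receptor for lymph node entry, had 383 (292 to 493) CPM in KPC-shV and 109.5 (73.3 to 157) in KPC-shZEB1, a ratio of 0.286 (0.177 to 0.453). In Foxp3-negative cells the ratio was 1.35 (0.967 to 1.92), and 9 and 8 members held a Ccr7 UMI. Itgae (CD103), an integrin that binds epithelium, had 159 (103 to 235) and 34.0 (15.5 to 64.5) CPM, a ratio of 0.213 (0.0876 to 0.472), from 10 and 8 members. The log2 ratios without the cell with most UMIs were -1.41 for Ccr7 and -1.64 for Itgae. Dgkh, a diacylglycerol kinase gene, had 274 (198 to 369) and 60.4 (34.5 to 98.1) CPM, a ratio of 0.220 (0.116 to 0.399). The other 7 of the 10 lowest genes were Tmx3, 2210408F21Rik, Pkp4, Yaf2, Ddx24, Fancc and Kif13b, with log2 ratios from -1.89 to -1.47.

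Most genes of the regulatory lists differed by less than 2-fold between libraries, as did most of all genes compared, so this is no trait of the lists. Of 15 identity genes compared 0 were at least 2-fold higher in KPC-shZEB1 and 2, Ikzf4 and Itgae, were lower. Over all genes the shares were 5.78% higher and 3.09% lower. Of 13 tissue effector genes 0 were higher and 1, Il10, was lower, the latter from 4 and 3 cells. Il1rl1 had a ratio of 1.04 (0.779 to 1.39), Il2ra of 0.888 (0.717 to 1.10), Ctla4 of 0.861 (0.703 to 1.06), Areg of 0.810 (0.656 to 1.00) and Itgb8 of 1.68 (1.14 to 2.53). The interval of Itgb8 lay above 1 and those of the other 4 included 1. At the wider C1q limit the ratios were 0.666 (0.513 to 0.873), 0.717 (0.598 to 0.865), 0.617 (0.521 to 0.734), 0.576 (0.479 to 0.696) and 1.05 (0.760 to 1.46) in the same order, so the first 4 lay below 1 and Itgb8 included it. Itgav, its partner, had a ratio of 0.518 (0.457 to 0.588) and Tnfrsf18 of 0.561 (0.415 to 0.757). At the wider C1q limit these were 0.384 (0.346 to 0.426) and 0.484 (0.379 to 0.622), both past 2-fold lower. Rora, a listed tissue effector gene, went from log2 -0.89 to -1.18 at that limit.

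Immediate early genes showed how much 1 cell can carry. Fos had 249 (177 to 340.0) CPM in KPC-shV members and 804 (700.0 to 920.0) in KPC-shZEB1 members, a ratio of 3.23 (2.29 to 4.67), and Egr1, Fosb, Klf2 and the hexokinase gene Hk2 had ratios of 2.41, 3.16, 2.85 and 3.38. The member with 21586 UMIs described above held 65.7% of the Fos, 61.3% of the Egr1, 51.0% of the Fosb and 71.9% of the Hk2 UMIs of KPC-shZEB1. Without it the log2 ratio of Fos was 0.26, that of Egr1 0.02, that of Fosb 0.73, that of Klf2 0.46 and that of Hk2 0.04, none of them 2-fold. The genes at least 2-fold higher in KPC-shZEB1 then numbered 103, of 2830 compared. Mki67 had 140.3 (87.9 to 212) and 427 (352 to 513) CPM, from 2 and 13 members, and 1 cell held 90.9% of its UMIs in KPC-shV.

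Ligands for the receptors of members were measured across the tumour. Il33, the ligand of Il1rl1, stood at 36.3 and 48.0 CPM over all kept cells and at 99.3 and 156 CPM in the fibroblast gate. That gate held 13.9% and 5.43% of the Il33 UMIs. Members had 0 and 7.55 CPM. Ccl17 and Ccl22, the ligands of Ccr4, stood at 48.9 and 135 and at 15.1 and 46.6 CPM over all kept cells, and Ccl8, a ligand of Ccr8, at 232 and 372. These 4 ligands were higher in KPC-shZEB1 on this scale, but not every listed ligand was. Il15 stood at 48.9 and 26.8 CPM, Ccl20 at 6.84 and 4.22 and Nectin2 at 41.0 and 39.4. Interleukin 2 (Il2), on which regulatory T cells depend, was at 0.803 and 1.10 CPM over all kept cells and at 27.4 and 1.65 CPM in Foxp3-negative T cells. The 27.4 CPM in KPC-shV rested mostly on 1 cell. Without that cell the log2 ratio of Il2 in members over Foxp3-negative cells was 0.55 in place of -1.19. Each library is 1 tumour, so these differences describe those tumours.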

How the data were processed

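Droplet libraries (10x Genomics Single Cell 3' v3.1) of 1 orthotopic allograft tumour per group were analysed. The authors deposited filtered matrices of whole-number UMI counts per gene and barcode, made with Cell Ranger 7.0.1 on the mm10 mouse genome per the submitters' processing notes. Whether intronic reads were counted is not given in the sources used here, and all 32285 genes were used as deposited.

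Barcodes were kept if they showed 500 or more genes, a total between 1000 and 60000 UMIs, and mitochondrial transcripts in no more than 15% of that total. Members, gates and gene lists were chosen with earlier results of these data known. No doublet caller was applied to the gates, and Scrublet scores (scanpy 1.11.5) above 0.2 served as an alternative, whereas the study's methods name DoubletFinder. UMI counts were summed per gate and library, scaled to CPM and compared as log2(CPM + 10). Genes needed 20 summed UMIs in each library for the comparison within libraries and 30 for that between libraries, and 2-fold is the threshold for every count. With 1 library per group no test was possible and no p-value is given, so 95% exact Poisson and binomial intervals (scipy 1.17.1) stand for counting error only, in CPM, ratios and shares alike. Shares of cells were repeated after thinning each cell to 2000 UMIs. Named genes were the members of the lists, and the 10 highest and 10 lowest genes of each comparison with at least 5 cells holding a UMI in the higher group and no cell holding over 25% of its UMIs. The C1q limit of 0.2%, the omission of a gene's top cell and the omission of the member with most Fos UMIs were chosen after seeing the data. Positions are from GENCODE vM21 (GRCm38) and promoters from RefSeq (GRCm38.p6). Comparisons within and between libraries use the same member cells. Python 3.11.15, numpy 2.4.6, pandas 2.3.3 and matplotlib 3.10.9 were used. The summing and ratio steps were tested on simulated data. Some results that rest on withheld items are not reported here.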

Additional observations from a re-analysis of the deposited data

Results flagged for a closer look

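In 5 listed genes the ratio of regulatory over Foxp3-negative Cd4-positive T cells lay above 1 in one library and below 1 in the other, with counting intervals clear of 1 on both sides. The difference between the libraries was not tested, because each is 1 tumour. The interferon-induced chemokine gene Cxcl10 had a ratio of 2.12 in KPC-shV and 0.658 in KPC-shZEB1, and the interferon-induced GTPase gene Iigp1 had 1.86 and 0.389. Without the cell holding most UMIs in the higher group the log2 ratios of Cxcl10 were -0.34 and -0.14, so the sign in KPC-shV rested on 1 member, and those of Iigp1 were 0.09 and -0.32. Nfkb1, the precursor of the NF-kB subunit p50, had ratios of 1.77 and 0.864, which became log2 values of 0.75 and -0.03 without that cell. Tnf (tumour necrosis factor) had 0.425 and 1.85, and without the top cell its log2 ratios were -0.84 and -0.58, so the sign in KPC-shZEB1 rested on 1 member as well. Trbc1, a constant segment of the T cell receptor beta chain, had 0.598 and 1.49, with log2 ratios of -0.53 and 0.30 without the top cell, and it shares sequence with Trbc2, which makes its counts uncertain.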

How the results depend on the processing

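The ratio of regulatory T cells per kept cell, 1.07 as reported, was 2.50 without the C1q, S100a8/S100a9 and Cd79a limits and 2.67 with C1q below 0.2%, and it fell below 1 per T cell (0.953) and per cell outside the granulocyte gate (0.806). Of the genes at least 2-fold higher in members of both libraries (146 as reported) there were 57 without the limits, 37 with the looser cell filter, 66 with C1q below 0.2% and 88 without each gene's top cell. Of those lower (355) there were 119, 163, 195 and 205 in the same order, and 189 by the mean over cells. Of the genes higher in KPC-shZEB1 members (172) there were 99 with at least 2 Foxp3 UMIs, 83 with Cd4 required, 669 without the limits, 357 with the looser filter, 597 with C1q below 0.2%, 1417 with no minimum on summed UMIs, 70 without each gene's top cell and 103 without the member with most Fos UMIs. Of those lower (92) there were 178 without the limits, 154 with the looser filter, 149 with C1q below 0.2%, 691 with no minimum and 42 without each gene's top cell. The looser filter added 1 and 3 members, all above 60000 UMIs, which held 39.0% and 51.5% of member UMIs. Without its top cell the log2 ratio of 31 of 208 listed genes in KPC-shV and 43 in KPC-shZEB1 changed sign. Leaving out each gene's top cell can only take genes away from these counts. The cause of the other moves was not tested. Without cells of a doublet score above 0.2, and with cells of at least 4000 UMIs, all 60 results kept their direction and stayed within 1.5 times, or within the counting interval, of the reported value. No paired analysis was possible because each group had 1 library. The number of members, 62, limits every value: a gene with 0 UMIs in a gate may still be expressed there at up to the level of 3 UMIs.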
